A study of Homo sapiens with 27 samples.

Results

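PC3 cells carrying RIPK2 gRNA 10 were compared with PC3 cells carrying the control guide, gRNA #1. The labels give the first population the genotype RIPK2 knockout and the second WT, and each contributed 3 bulk RNA-seq libraries, which are 6 of the 27 libraries of the series. These 6 were taken by their titles, and all 14718 genes that passed a filter on low counts were examined. The series also holds 3 PC3 libraries with another RIPK2 guide, gRNA 2. It further holds control and gRNA 10 populations of the prostate cancer lines 22Rv1 and DU145, with RIPK2 gRNA 1 in 22Rv1 and gRNA 2 in DU145. It asks which transcripts differ when RIPK2 is knocked out. PC3 is an established line from a bone metastasis of prostate cancer that is grown without a need for androgen. No treatment is named for any of these groups. The guide sequences, and whether a population grew from a single edited cell or is a pool, are not given in the sources used here. The labels do not say that the 3 libraries of a group came from separate cultures, so every p-value below measures only the spread between these libraries, which may be technical.

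RIPK2 is a serine/threonine and tyrosine kinase with a caspase recruitment domain. It binds NOD1 and NOD2, cytosolic sensors of bacterial peptidoglycan, and becomes a scaffold for ubiquitin chains built by XIAP, ITCH and the LUBAC complex. These chains bring in the TAK1 and IKK kinases, and so NF-kB and the stress-activated MAP kinases, which turn on cytokine and survival genes. In prostate cancer cells the kinase has also been tied to the stability of MYC protein, a point that mRNA counts do not measure.

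RIPK2 mRNA was lower in every gRNA 10 library than in every control library. The control libraries held 59.5, 59.3 and 62.4 CPM (counts scaled to a common library total with TMM factors), and the gRNA 10 libraries held 25.5, 28.3 and 27.8 CPM (log2 fold change -1.15, SE 0.0534, edgeR adjusted p 2.81e-18). The 2 groups of 3 did not overlap. The transcript lies at chr8:89757747-89791063 on the plus strand of GRCh38. A frameshift need not remove an mRNA, and the protein was not measured. Of the sensors above RIPK2, NOD1 stood at 3.595, 3.58 and 3.43 CPM in the control and 2.71, 3.08 and 2.98 CPM with gRNA 10, and this difference did not pass the test (log2 fold change -0.27, edgeR adjusted p 0.0867). NOD2 was at 0 counts in all 3 control libraries and at 4, 4 and 7 counts with gRNA 10, too few to be tested.

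Downstream members of the NOD and RIPK2 pathway moved in both directions. Of 30 members tested, 12 rose and 10 fell, with a median log2 fold change of -0.01, while 73.5% of all genes tested passed the same threshold, with 37.9% as rises and 35.6% as falls. The list's share of calls was thus close to that of all genes. MAPK9, which encodes the JNK2 kinase, rose from 47.8, 45.6 and 46.05 to 86.2, 85.4 and 89.9 CPM (log2 fold change 0.91, SE 0.0466, edgeR adjusted p 3.78e-17). IKBKG, the regulatory subunit NEMO of the IKK complex, rose from 19.3, 21.9 and 19.03 to 33.6, 33.8 and 34.6 CPM (log2 fold change 0.76, SE 0.0623, edgeR adjusted p 2.8e-12). RBCK1, a LUBAC subunit also called HOIL-1, rose from 147, 132 and 139 to 246, 220.4 and 229.9 CPM (log2 fold change 0.73, SE 0.0438, edgeR adjusted p 4.51e-15). All 3 stood above the control in each gRNA 10 library. ITCH, a ubiquitin ligase that acts on RIPK2, fell from 125, 128 and 127 to 72.5, 81.03 and 81.7 CPM (log2 fold change -0.69, SE 0.0463, edgeR adjusted p 2.41e-14). Among RIP kinases and cell death genes, 4 of 12 rose and 6 fell (median -0.05). FADD, the adaptor of death receptors, rose (log2 fold change 0.79, edgeR adjusted p 2.93e-16) and so did TRADD (log2 fold change 0.58, edgeR adjusted p 1.37e-10), while the initiator caspase gene CASP10 fell from 5.69, 5.37 and 5.37 to 1.69, 1.44 and 1.25 CPM (log2 fold change -1.90, SE 0.167, edgeR adjusted p 1.49e-11) and the TNF receptor gene TNFRSF1A fell by a smaller step (log2 fold change -0.25, edgeR adjusted p 5.94e-06).

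The 6 libraries had similar depth, from 20305286 to 20650819 counts, with TMM factors from 0.975 to 1.02 and a common biological coefficient of variation of 3.55% in PC3. Chi-square values of 2.12 to 3.89 per degree of freedom between replicates exceeded sampling noise, so no library was treated as a duplicate. Mitochondrially encoded genes took 4.44% to 4.69% of the counts with the control guide, 2.90% to 3.20% with gRNA 10 and 4.35% to 4.59% with gRNA 2. CTNNA1, the alpha-catenin gene known to be lost in PC3, held 18 to 39 counts in the 6 libraries. The androgen-induced 22Rv1 marker KLK3 was at 0 in all 6 libraries. The 6 leukocyte markers measured, with PTPRC at 0 to 2 counts, summed to 21 to 31 counts in the control and 27 to 40 with gRNA 10. The 8 fibroblast markers summed to 1505 to 1564 and 1474 to 1543 counts, with members that moved in opposite directions. COL1A1 stood at 532 to 567 counts in the control and 1060 to 1157 with gRNA 10, COL3A1 at 725 to 741 and 344 to 396, PDGFRA at 201 to 226 and 8 to 14, and PDGFRB at 23 to 27 and 1 to 2, while DCN, LUM and THY1 had at most 2 counts in any of the 6. The 6 endothelial markers summed to 60 to 75 counts in the control and 983 to 1104 with gRNA 10, mostly through KDR, the VEGF receptor gene, at 23 to 28 and 856 to 938 counts. PECAM1 stood at 34 to 45 and 121 to 161 counts. The part of other cells in any result below was not tested, and in bulk RNA fewer cells of a type and less RNA per cell cannot be told apart.

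The difference between the 2 populations reached most of the transcriptome. Of 14718 genes tested, 10815 (73.5%) passed an edgeR adjusted p of 0.05, of which 5571 were higher with gRNA 10 and 5244 lower. A fold of at least 2 was reached by 2531 (17.2%), with 1465 rises (9.95% of genes tested) and 1066 falls (7.24%), and a fold of at least 4 by 592 rises and 363 falls. When only genes with at least 10 counts in every library were tested, the number of calls with a fold of at least 2 was 1508 in place of 2531. The 3 and 3 libraries did not overlap for 11010 genes (74.8%), and 10411 of these were among the calls. With total counts alone as the scale, 6169 rises and 4622 falls were called in place of 5571 and 5244, so the division between rises and falls rests partly on the scaling. The counts of rises and falls in the gene lists below stand beside 37.9% and 35.6% over all genes tested.

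**Figure D1:**
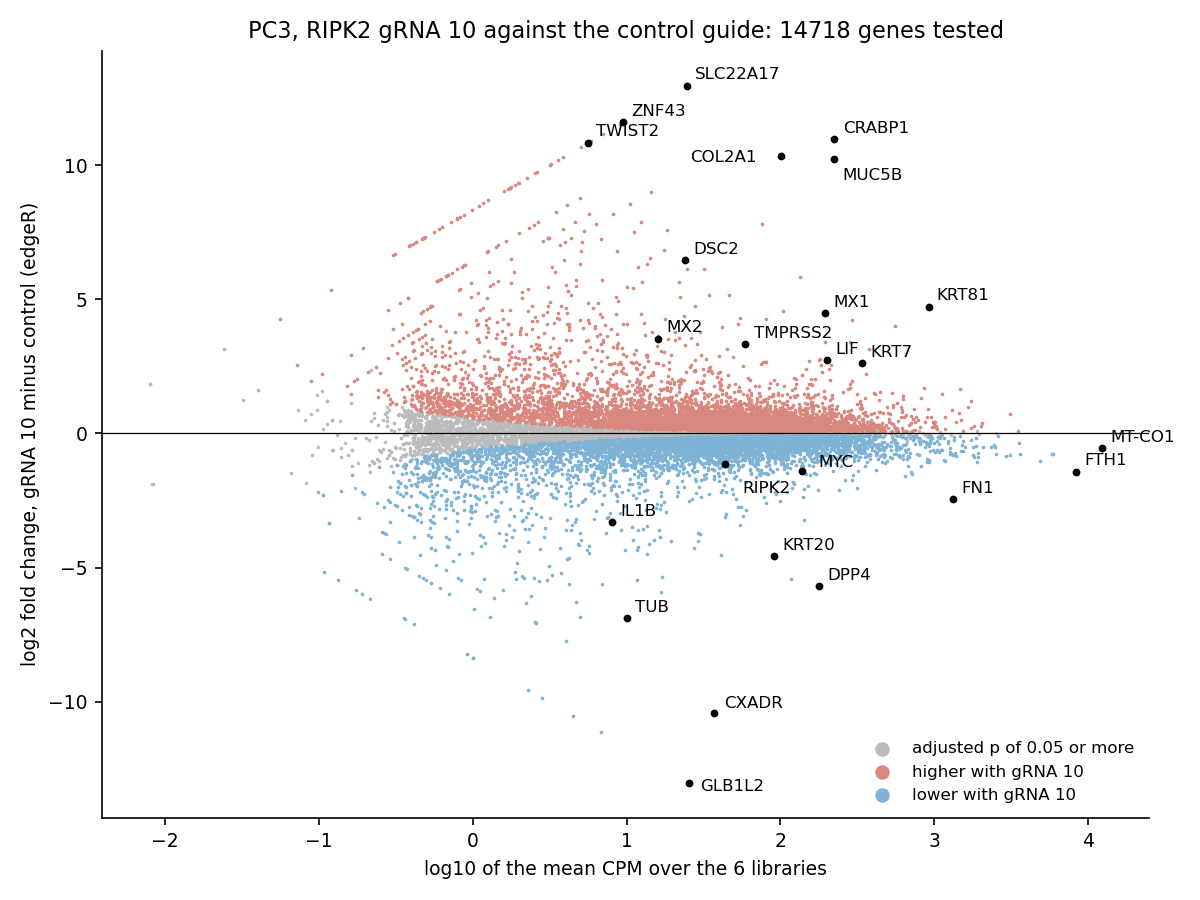
Each point is a gene tested in PC3, with its mean level over the 6 libraries on the x axis (log10 CPM) and its log2 fold change, gRNA 10 minus control, on the y axis. Rises (5571) and falls (5244) are spread over the whole range of levels around a median of 0.01, and the points with the largest changes are genes that were nearly silent in 1 of the groups; 1 gene at 0 in all 6 libraries is left off.

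In absolute terms, the transcripts that gained most counts included KRT81, FLNA, GNAS and ALDH1A3, and those that lost most were FTH1, MT-CO1, MSMP, EEF1A1 and MT-RNR2. FLNA, the actin crosslinker filamin A, rose from 2266, 2425 and 2315 to 4178, 3949 and 3598 CPM (log2 fold change 0.74, edgeR adjusted p 2.7e-12). GNAS, the stimulatory G protein subunit, rose from 1072, 1039 and 1067 to 2380, 2336 and 2558 CPM (log2 fold change 1.19, edgeR adjusted p 4.25e-23). For both genes the lowest gRNA 10 library was above the highest control library. ALDH1A3, which makes retinoic acid, rose from 1081, 1157 and 1125 to 2188, 2215 and 2205 CPM (log2 fold change 0.97, edgeR adjusted p 1.59e-21). MSMP, a secreted microseminoprotein first found in PC3 cells, fell from 6909, 6067 and 6668 to 3256, 3142 and 3294 CPM (log2 fold change -1.02, edgeR adjusted p 6.38e-08). EEF1A1, the translation elongation factor that brings transfer RNA to the ribosome, fell from 7585, 7262 and 7528 to 4455, 4253 and 4592 CPM (log2 fold change -0.75, edgeR adjusted p 3.98e-18).

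Some genes were silent in one population and well expressed in the other. There were 38 genes (0.258% of those tested) with at most 3 counts in every control library and at least 100 in every gRNA 10 library, and 7 genes (0.0476%) with the opposite pattern. In the control, 12 of the 38 had no count at all. SLC22A17, which encodes the lipocalin-2 receptor, had 0 counts in each control library and 1006, 1010 and 1044 with gRNA 10, at least 329-fold higher when the control is set to a floor of 3 counts per library. ZNF43, a zinc finger repressor gene of chromosome 19, had 0 counts in each control library and 363, 431 and 390 with gRNA 10, at least 127-fold higher. FAM43B had 332, 406 and 400 counts against 0 (at least 122-fold). ZNF626 had 266, 303 and 313 counts against 0 (at least 94.8-fold). TWIST2, a basic helix-loop-helix factor of mesenchymal cells, had 234, 205 and 262 counts against 0 (at least 75.4-fold), and OTOP2, a proton channel gene, 193, 210 and 227 (at least 67.7-fold). The 3 libraries of a group were alike for each of these genes. The 38 genes together held 0.000131% to 0.000136% of the counts of a control library and 0.0644% to 0.0669% of those of a gRNA 10 library.

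Other genes of this kind had a few counts in the control. COL2A1, the fibrillar collagen chain of cartilage, had 3 counts in each control library and 4313, 4291 and 4040 with gRNA 10 (ratio 1360, 95% counting interval 716 to 2970). WNT3A, a canonical WNT ligand, had 0, 1 and 1 counts in the control and 188, 188 and 195 with gRNA 10 (ratio 276, 95% counting interval 76.1 to 2290). ESRP1, which directs epithelial splicing, had 2, 1 and 0 and 181, 221 and 250 counts (ratio 210, 95% counting interval 71.7 to 1020). The transcription factor gene TP73 (0, 1 and 2 against 189, 155 and 151 counts) and the chemokine gene CXCL12 (1, 0 and 0 against 111, 105 and 114) had the same pattern. A pair of genes just outside the rule, with somewhat more control counts, rose as far. MUC5B, a gel-forming mucin of secretory epithelium, stood at 0.449, 0.199 and 0.447 CPM in the control and 555, 469 and 317 CPM with gRNA 10 (log2 fold change 10.23, SE 0.458, edgeR adjusted p 8.51e-07). CRABP1, a cytosolic carrier of retinoic acid, stood at 0.2497, 0.149 and 0.248 CPM and 470, 374 and 500.1 CPM (log2 fold change 10.98, SE 0.269, edgeR adjusted p 1.43e-08). The gRNA 10 libraries of MUC5B ranged from 317 to 555 CPM, and the lowest was still far above the control. The counting intervals cover counting error only, because reads lack molecular identifiers and need not be independent.

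Among the 7 genes lost with gRNA 10, CXADR is the receptor of coxsackievirus and adenovirus and a tight junction protein. It had 1399, 1451 and 1592 counts in the control and 0, 3 and 0 with gRNA 10 (ratio of control to gRNA 10 1530, 95% counting interval 523 to 7420). GLB1L2, a relative of beta-galactosidase, had 1068, 1055 and 966 counts in the control and 0 in each gRNA 10 library, at least 355-fold lower. SLC47A1, the MATE1 exporter of organic cations, had 159, 174 and 154 and 1, 0 and 1 counts (ratio 252, 95% counting interval 69.3 to 2080). The WNT antagonist gene NKD2 went from 196, 194 and 172 to 3, 1 and 3 counts (ratio 83, 95% counting interval 40 to 207). The others were LINC01116, a long noncoding RNA (at least 62.6-fold lower), ZNF280B, a zinc finger gene (at least 39.3-fold lower), and HNRNPA1P57, a processed pseudogene whose reads may belong to its parent family (at least 94.3-fold lower). Of the 7, 4 were at 0 in all gRNA 10 libraries. The number was 12 when gRNA 10 replicate 1 was left out, and the number of gained genes was 39 to 42 when any 1 library was left out. DPP4, a membrane peptidase, was not silenced but fell from 345, 356 and 349 to 6.48, 6.64 and 7.02 CPM (log2 fold change -5.70, SE 0.0523, edgeR adjusted p 3.61e-36). TUB (log2 fold change -6.90, edgeR adjusted p 2.28e-24), the imprinted gene PEG3 (log2 fold change -6.83, edgeR adjusted p 1.26e-19) and OLFM2 (log2 fold change -5.89, edgeR adjusted p 1.08e-26) fell by more than DPP4. Each of these 4 was lower in every gRNA 10 library than in any control library.

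**Figure D2:**
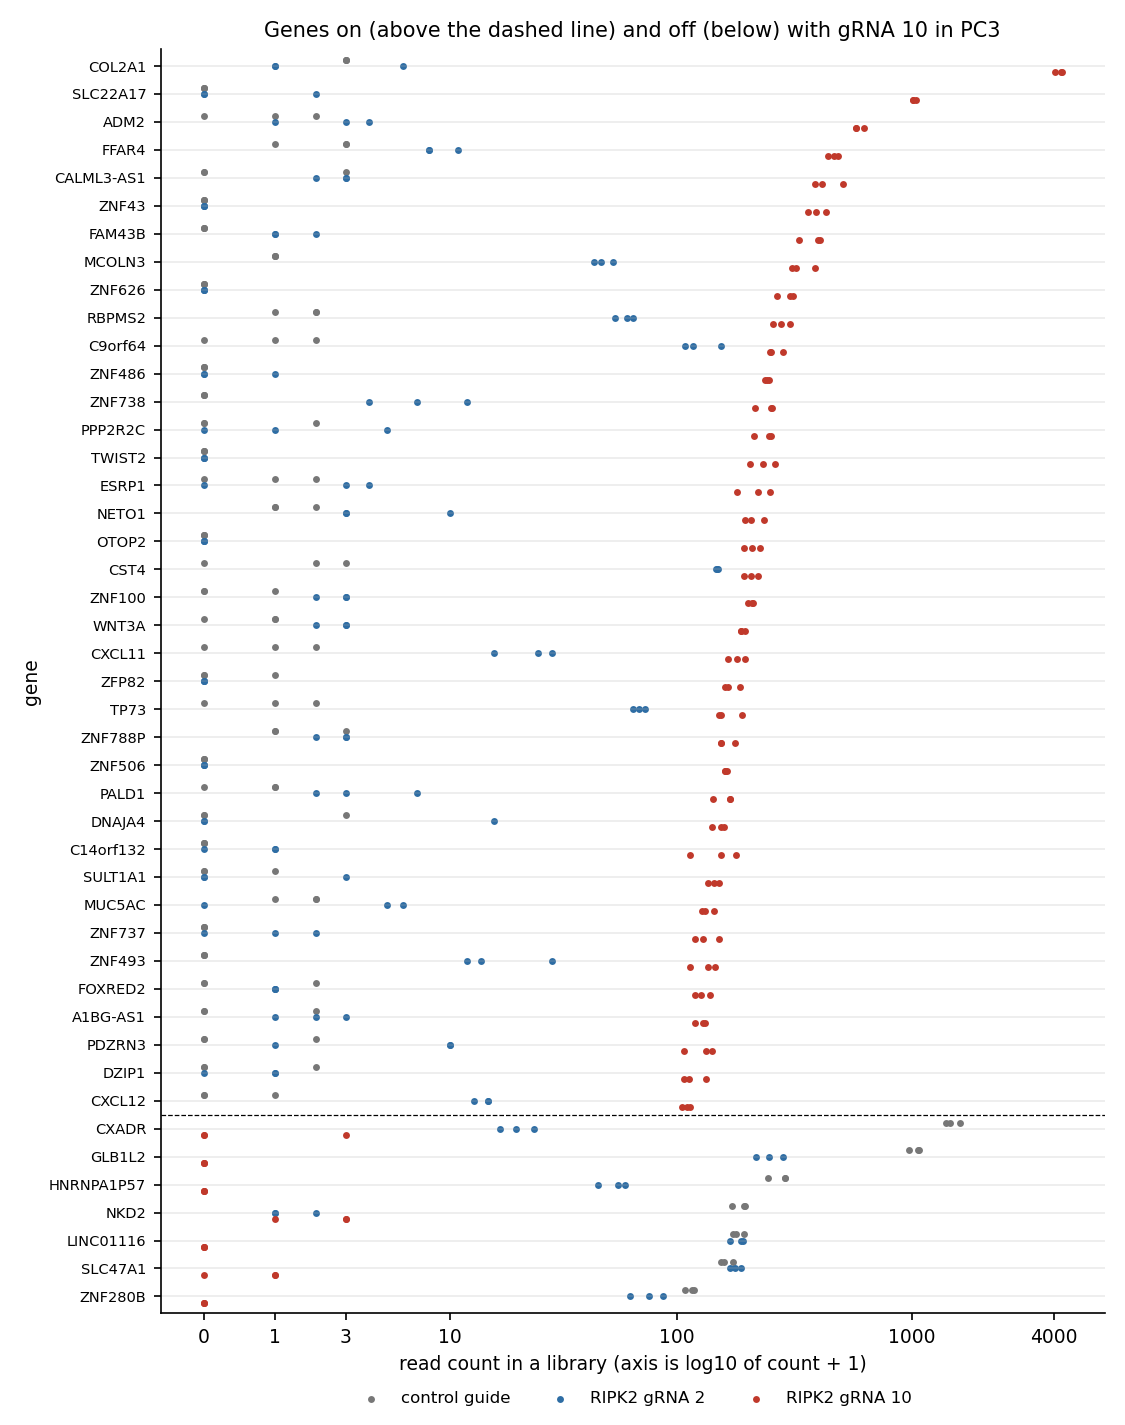
Read counts per library on the x axis (log10 of count + 1) of the 38 and 7 genes, in rows on the y axis, found silent in 1 group and expressed in the other, with 1 point per library of the control, gRNA 10 and gRNA 2 groups. The control points of the gained genes lie at 0 to 3 counts and the gRNA 10 points at 100 or more, with the reverse for the 7 lost genes, and the gRNA 2 points lie with the control for some genes and with gRNA 10 for others.

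The promoters of 4 of these genes are shown because the gained zinc finger genes held fewer CG pairs there than most genes. Each line gives the 250 bases before the RefSeq gene start (GRCh38.p14), read on the gene's own strand, with every CG in capitals. They are ZNF43 at chr19:21836183-21836432, minus strand, ZNF626 at chr19:20661572-20661821, minus strand, TWIST2 at chr2:238847835-238848084, plus strand, and the lost gene NKD2 at chr5:1008552-1008801, plus strand.
ZNF43: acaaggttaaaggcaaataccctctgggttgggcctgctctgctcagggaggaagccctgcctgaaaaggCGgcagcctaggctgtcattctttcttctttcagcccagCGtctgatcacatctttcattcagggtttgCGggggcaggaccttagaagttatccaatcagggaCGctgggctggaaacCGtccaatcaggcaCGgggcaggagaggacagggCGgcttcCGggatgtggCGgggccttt
ZNF626: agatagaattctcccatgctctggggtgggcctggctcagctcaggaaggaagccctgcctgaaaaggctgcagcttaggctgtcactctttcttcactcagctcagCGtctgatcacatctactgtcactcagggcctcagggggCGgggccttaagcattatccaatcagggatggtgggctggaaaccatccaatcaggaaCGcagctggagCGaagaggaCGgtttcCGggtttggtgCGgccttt
TWIST2: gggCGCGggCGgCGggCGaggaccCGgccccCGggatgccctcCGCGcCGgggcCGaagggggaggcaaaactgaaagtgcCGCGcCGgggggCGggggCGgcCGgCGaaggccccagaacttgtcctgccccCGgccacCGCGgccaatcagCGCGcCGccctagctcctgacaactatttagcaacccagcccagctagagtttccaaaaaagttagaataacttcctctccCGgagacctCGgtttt
NKD2: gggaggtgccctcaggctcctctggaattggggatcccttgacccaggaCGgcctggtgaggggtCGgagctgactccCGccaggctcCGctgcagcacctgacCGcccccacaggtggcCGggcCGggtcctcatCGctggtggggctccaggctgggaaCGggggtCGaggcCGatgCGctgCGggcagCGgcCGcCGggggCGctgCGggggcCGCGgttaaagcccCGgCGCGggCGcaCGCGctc
ZNF43 and ZNF626 hold 9 and 7 CG pairs in these stretches, and TWIST2 and NKD2 hold 26 each. Of the gained zinc finger genes of 19p12, 6 had a promoter in the RefSeq table; their median ratio of observed to expected CG over 300 bases was 0.42, and 0 of the 6 reached 0.6. Of the promoters of all genes tested, 80.8% reached 0.6, and of the other gained genes 16 of 20 (80%) did. DNA methylation was not measured.

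Epithelial genes formed 1 of the groups with larger changes. Of 37 genes of epithelial junctions and identity, 23 rose and 11 fell (median log2 fold change 0.52), with 13 rises and 3 falls of at least 2-fold. DSC2, the desmosomal cadherin desmocollin 2, stood at 0.449, 0.597 and 0.546 CPM in the control and 46.3, 48.9 and 46.96 CPM with gRNA 10 (log2 fold change 6.46, SE 0.114, edgeR adjusted p 6.2e-29). DSP, desmoplakin, rose from 34.9, 38.2 and 36.4 to 151, 154 and 130.4 CPM (log2 fold change 1.99, SE 0.0561, edgeR adjusted p 1.86e-20), and OCLN, the tight junction protein occludin, from 2.85, 2.29 and 3.77 to 14.8, 17.7 and 15.5 CPM (log2 fold change 2.43, SE 0.124, edgeR adjusted p 1.28e-16). Both junction genes and DSC2 were higher in every gRNA 10 library. The classic epithelial markers moved less, with CDH1, E-cadherin, up (log2 fold change 0.43, edgeR adjusted p 4.71e-06) and EPCAM down (log2 fold change -0.34, edgeR adjusted p 2.41e-06). The tight junction gene CLDN4 fell (log2 fold change -0.92, edgeR adjusted p 1.39e-19), beside CXADR.

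Keratin transcripts changed in both directions, with 8 of 12 rising and 4 falling (median 1.04). KRT81, a hair keratin, stood at 69.8, 63.3 and 66.3 CPM in the control and 1813, 1707 and 1782 CPM with gRNA 10 (log2 fold change 4.73, SE 0.0431, edgeR adjusted p 3.61e-36). The neighbouring KRT86 is a near copy, so reads may be divided between them. KRT7, of simple and ductal epithelium, rose from 97.4, 94.3 and 93.9 to 611, 541 and 599.9 CPM (log2 fold change 2.62, SE 0.0421, edgeR adjusted p 6.23e-30). KRT8 (log2 fold change 1.39, edgeR adjusted p 8.31e-24) and KRT18 (log2 fold change 1.05, edgeR adjusted p 6.59e-22), the partner keratins of luminal prostate cells, rose together, and KRT19 rose by less (log2 fold change 0.62, edgeR adjusted p 1.15e-15). KRT20, typical of intestinal and urothelial cells, fell from 170.4, 167 and 184 to 7.25, 6.88 and 7.79 CPM (log2 fold change -4.57, SE 0.0632, edgeR adjusted p 1.29e-31), and KRT10 fell slightly (log2 fold change -0.37, edgeR adjusted p 2.6e-05).

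Prostate luminal markers shifted as well, with 9 of 14 rising and 4 falling (median 1.22). TMPRSS2, a membrane serine protease gene under androgen control in prostate, rose from 9.84, 11.1 and 11.2 to 105, 104 and 115 CPM (log2 fold change 3.33, SE 0.0616, edgeR adjusted p 1.95e-28). SLC45A3, the prostate membrane protein prostein, rose from 25.5, 25.3 and 24.1 to 82.2, 82.6 and 85.5 CPM (log2 fold change 1.74, edgeR adjusted p 9.27e-24). No library of one group reached the other for either gene. Not all members followed. FKBP5 (log2 fold change -1.21, edgeR adjusted p 7.51e-15), NDRG1 (log2 fold change -1.75, edgeR adjusted p 1.08e-26) and HOXB13 (log2 fold change -0.55, edgeR adjusted p 2.63e-15) fell, and KLK3 had no counts in any of the 6 libraries.

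Genes of the mesenchymal state and of the matrix did not move as a block. Of 31 mesenchymal genes and regulators, 15 rose and 11 fell (median 0.18), among integrins and laminins 11 of 25 rose and 12 fell (median 0.00), and among collagens 10 of 22 rose and 10 fell (median -0.09). FN1, fibronectin, fell from 2139, 2348 and 2217 to 409, 437 and 372 CPM (log2 fold change -2.46, SE 0.0623, edgeR adjusted p 7.1e-13). CAV1, the coat protein of caveolae, fell from 493, 523 and 513 to 118, 122 and 129 CPM (log2 fold change -2.05, edgeR adjusted p 3.61e-28). Both were lower in each gRNA 10 library than in any control library. VIM, vimentin, fell only slightly (log2 fold change -0.24, edgeR adjusted p 1.84e-07), and the fibronectin receptor subunit ITGA5 rose (log2 fold change 1.36, edgeR adjusted p 2.99e-22).

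Within the integrins, ITGA7, a laminin receptor subunit, rose from 4.94, 4.97 and 5.27 to 78.7, 79.4 and 77.1 CPM (log2 fold change 3.95, SE 0.0682, edgeR adjusted p 3.95e-29), and ITGB3, the beta chain of the vitronectin receptor, from 1.95, 2.54 and 2.29 to 12.4, 13.6 and 14.8 CPM (log2 fold change 2.59, edgeR adjusted p 4.61e-18). The collagen receptor subunit ITGA2 (log2 fold change -1.04, edgeR adjusted p 3.46e-06) and the laminin chain LAMA4 (log2 fold change -1.88, edgeR adjusted p 4.56e-18) fell, and so did the collagen VI chain COL6A1, from 4473, 4588 and 4546 to 2716, 2687 and 2641 CPM (log2 fold change -0.76, edgeR adjusted p 4.65e-19). COL7A1, of anchoring fibrils, rose (log2 fold change 1.64, edgeR adjusted p 1e-17), beside the gain of COL2A1. Falls outnumbered rises among invasion proteases and their inhibitors, with 18 of 31 lower and 11 higher (median -0.18). MMP13, a collagenase, fell from 67.9, 70.2 and 64.7 to 13.1, 15.3 and 16.2 CPM (log2 fold change -2.19, SE 0.0645, edgeR adjusted p 1.24e-22). PLAT, the tissue plasminogen activator, fell from 1006, 1073 and 1042 to 370.1, 373 and 399 CPM (log2 fold change -1.45, SE 0.04, edgeR adjusted p 3.65e-23). PLAU, the urokinase activator (log2 fold change 0.38, edgeR adjusted p 1.6e-11), and its receptor PLAUR (log2 fold change 1.01, edgeR adjusted p 3.92e-14) rose, and the membrane-type protease gene MMP15 rose from 4.25, 4.68 and 4.47 to 28.1, 27.9 and 27.4 CPM (log2 fold change 2.64, edgeR adjusted p 9.49e-23).

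NF-kB genes, the usual output of RIPK2, showed no common direction. Of 36 subunits and targets, 15 rose and 11 fell (median 0.04), and of 31 cytokines and receptors 12 rose and 12 fell (median 0.07); the lists share some genes. LIF, a cytokine of the interleukin-6 family, stood at 53.9, 48.5 and 54.9 CPM in the control and 370.4, 331 and 339.6 CPM with gRNA 10 (log2 fold change 2.73, SE 0.0516, edgeR adjusted p 5.5e-24), while its receptor gene LIFR fell from 103, 121 and 117 to 36.6, 44.1 and 42.7 CPM (log2 fold change -1.47, SE 0.0637, edgeR adjusted p 4.72e-14). Ligand and receptor thus moved in opposite directions in every library. NFKBIA, the inhibitor of NF-kB that NF-kB itself induces, rose from 12.8, 15.02 and 13.7 to 58.6, 70.6 and 73.9 CPM (log2 fold change 2.29, SE 0.0885, edgeR adjusted p 6.58e-13). IL1B, interleukin-1 beta, fell from 14.4, 14.6 and 14.8 to 1.499, 1.54 and 1.35 CPM (log2 fold change -3.32, SE 0.115, edgeR adjusted p 1.52e-21). The chemokine gene CXCL8 fell from 8.89, 7.56 and 7.55 to 4.16, 3.37 and 3.22 CPM (log2 fold change -1.16, SE 0.132, edgeR adjusted p 4.03e-09). For NFKBIA, IL1B and CXCL8 no gRNA 10 library reached the control range. IL1RAP, an accessory chain of the interleukin-1 receptor, rose (log2 fold change 0.90, edgeR adjusted p 5.5e-08).

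In the MAP kinase cascade and AP-1, 13 of 33 members rose and 13 fell (median -0.02), shares close to those of all genes tested. MAPK13, the p38 delta kinase gene, rose from 19.4, 18.8 and 17.2 to 50.9, 49.4 and 52.2 CPM (log2 fold change 1.46, SE 0.0568, edgeR adjusted p 3.16e-20), and MAP3K5, the stress kinase ASK1, fell from 29.96, 34.4 and 31.2 to 10.5, 13.1 and 12.98 CPM (log2 fold change -1.39, SE 0.0769, edgeR adjusted p 2.73e-16). The feedback inhibitors SPRY4 (log2 fold change 0.98, edgeR adjusted p 8.08e-21) and SPRY2 (log2 fold change -1.09, edgeR adjusted p 9.14e-16) moved in opposite directions, and the AP-1 subunit gene FOSL1 rose slightly (log2 fold change 0.22, edgeR adjusted p 5.82e-07). Of 14 EGF receptors and ligands, 9 rose and 3 fell (median 0.45). ERBB3, a receptor with little kinase activity of its own, rose from 10.9, 11.1 and 12.7 to 54.3, 52.2 and 50.8 CPM (log2 fold change 2.18, SE 0.0656, edgeR adjusted p 4.65e-23), and LRIG1, which limits EGF receptor signalling, from 0.899, 1.19 and 1.29 to 19.4, 19.1 and 18.9 CPM (log2 fold change 4.08, SE 0.128, edgeR adjusted p 1.52e-22). The ligands BTC (log2 fold change -0.86, edgeR adjusted p 7.82e-09) and HBEGF (log2 fold change -0.47, edgeR adjusted p 1.04e-05) fell.

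Among WNT ligands, receptors and feedback genes 18 of 34 rose and 13 fell (median 0.22). Besides the gain of WNT3A and the loss of NKD2, the transcription factor gene TCF7 rose from 2.996, 3.63 and 3.43 to 38.01, 38.95 and 36.7 CPM (log2 fold change 3.50, SE 0.0824, edgeR adjusted p 8.3e-26) and the ligand gene WNT10B fell from 7.79, 8.61 and 8.64 to 0.725, 0.963 and 0.865 CPM (log2 fold change -3.28, SE 0.155, edgeR adjusted p 4.44e-18). DKK1, a secreted WNT antagonist, rose by less (log2 fold change 0.43, edgeR adjusted p 1.6e-12). Of 37 semaphorins, plexins and ephrins, 18 rose and 9 fell (median 0.11). SEMA3F, a secreted guidance cue, rose from 55.5, 52.04 and 52.95 to 313, 308 and 321 CPM (log2 fold change 2.55, SE 0.0402, edgeR adjusted p 4.02e-30), while its relatives SEMA3D, which went from 49.2, 59.5 and 55.98 to 3.24, 3.9 and 3.03 CPM (log2 fold change -4.02, SE 0.0957, edgeR adjusted p 1.38e-21), and SEMA3A (log2 fold change -2.97, edgeR adjusted p 1.68e-19) fell. SEMA3D and SEMA3A stood below the control range in every gRNA 10 library. The ephrin receptor EPHB3 rose (log2 fold change 2.52, edgeR adjusted p 4.64e-27), and NRP1, a co-receptor of these semaphorins, did not pass the test (log2 fold change -0.06, edgeR adjusted p 0.108).

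Interferon-stimulated genes rose with gRNA 10. Of 40 tested, 32 rose and 3 fell, with a median log2 fold change of 0.87 against 0.01 for all genes, and 18 of the rises were at least 2-fold. These genes are induced by interferons through receptors and JAK kinases, and many of them block viral replication. MX1, a GTPase that blocks influenza virus, stood at 22.1, 15.4 and 12.02 CPM in the control and 446, 337 and 338 CPM with gRNA 10 (log2 fold change 4.50, SE 0.214, edgeR adjusted p 1.22e-06). Its paralog MX2 stood at 3.196, 2.98 and 1.39 and 36.9, 28.1 and 23.1 CPM (log2 fold change 3.54, SE 0.295, edgeR adjusted p 2.41e-05). Control and gRNA 10 libraries did not overlap for either gene, while the control libraries of MX2 differed among themselves by more than a factor of 2. IFI6, an interferon-induced mitochondrial protein gene, rose from 65.97, 41.5 and 35.4 to 213, 165 and 217 CPM (log2 fold change 2.06, edgeR adjusted p 0.000165). IFIT1, which binds viral RNA lacking cap methylation, rose from 32.3, 23.2 and 15.3 to 119, 92.01 and 86.1 CPM (log2 fold change 2.07, edgeR adjusted p 0.000241). IFITM1, a membrane protein that hinders viral entry, rose from 11.9, 7.36 and 5.71 to 44.1, 34.2 and 43.8 CPM (log2 fold change 2.29, edgeR adjusted p 7.16e-05). The 3 falls included the neighbouring genes SAMD9L, from 16.03, 12.1 and 10.6 to 3.19, 3.27 and 2.45 CPM (log2 fold change -2.12, SE 0.151, edgeR adjusted p 6.47e-11), and SAMD9 (log2 fold change -0.72, edgeR adjusted p 0.017), and the call of SAMD9 was lost without gRNA 10 replicate 2 (edgeR adjusted p 0.0512). In the antigen presentation genes of MHC class I, 4 of 19 rose and 9 fell (median -0.23). HLA-F, a nonclassical class I gene similar to its neighbours, rose (log2 fold change 0.46, edgeR adjusted p 0.000652), while the peptide trimming enzyme ERAP2 (log2 fold change -1.57, edgeR adjusted p 3.58e-17) and the peptide transporter subunit TAP2 (log2 fold change -0.62, edgeR adjusted p 3.72e-08) fell.

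The promoters of IFIT1, IFI6 and IFITM1 are shown because they carry the sequence through which these genes are known to respond to interferon. Each line gives the 250 bases before the RefSeq gene start (GRCh38.p14) on the gene's own strand, with capitals on each match of GAAA, any 2 bases and GAAA, read on either strand, the core of the interferon-stimulated response element. They are IFIT1 at chr10:89392373-89392622, plus strand, IFI6 at chr1:27672193-27672442, minus strand, and IFITM1 at chr11:313790-314039, plus strand.
IFIT1: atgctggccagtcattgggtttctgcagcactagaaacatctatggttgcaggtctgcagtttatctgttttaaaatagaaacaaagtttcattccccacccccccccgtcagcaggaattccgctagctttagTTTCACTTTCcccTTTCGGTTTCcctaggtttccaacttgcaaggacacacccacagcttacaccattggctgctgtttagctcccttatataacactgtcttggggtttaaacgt
IFI6: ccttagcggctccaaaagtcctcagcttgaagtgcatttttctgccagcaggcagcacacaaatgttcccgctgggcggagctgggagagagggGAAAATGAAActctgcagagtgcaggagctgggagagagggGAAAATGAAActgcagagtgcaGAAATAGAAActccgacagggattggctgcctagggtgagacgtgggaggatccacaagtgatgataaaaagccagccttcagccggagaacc
IFITM1: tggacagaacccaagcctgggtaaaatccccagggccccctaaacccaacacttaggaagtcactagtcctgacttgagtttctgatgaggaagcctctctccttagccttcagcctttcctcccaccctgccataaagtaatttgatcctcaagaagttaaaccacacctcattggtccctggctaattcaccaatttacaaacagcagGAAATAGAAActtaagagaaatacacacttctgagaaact
The first match lies 116 bases before the start in IFIT1, 156 in IFI6 and 40 in IFITM1. Within 300 bases around the start, the motif was present in 19 of the 30 list members with a promoter in the table (63.3%), in 18 of the 24 that rose (75%) and in 11 of the 13 that rose at least 2-fold (84.6%). Of the 11264 promoters of genes tested, 2.89% held it, and so did 3.65% of all 27305 promoters listed. Over all genes tested, it was held by 2.77% of promoters of genes called higher and 2.97% of those called lower. For changes of at least 2-fold the shares were 2.83% for rises and 5.43% for falls. A match describes the letters in this window only.

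**Figure D3:**
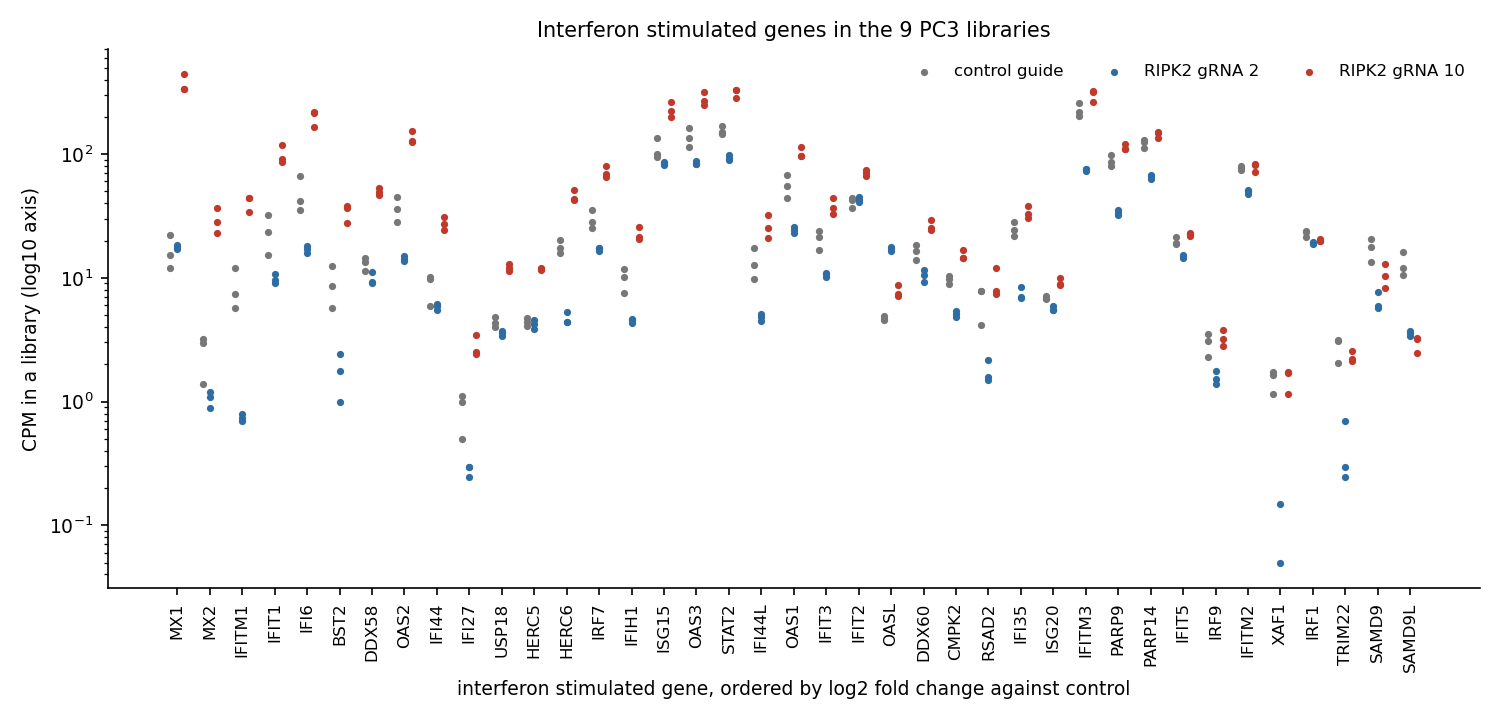
Levels of 39 interferon-stimulated genes in the 3 control, 3 gRNA 10 and 3 gRNA 2 libraries of PC3, in CPM on a log axis, 1 point per library. MX1 lies at 12.02 to 22.1 CPM in the control and 337 to 446 CPM with gRNA 10, and most other genes shown lie higher with gRNA 10 than with either other group; 1 value of XAF1 at 0 is left off the log axis.

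MYC mRNA fell with gRNA 10. MYC stood at 195, 208 and 195 CPM in the control and 77.4, 72.6 and 78.6 CPM with gRNA 10 (log2 fold change -1.39, SE 0.0416, edgeR adjusted p 4.32e-23), and the groups were far apart. MAX, the obligate partner of MYC, fell from 151, 147 and 144 to 77.95, 76.1 and 77.4 CPM (log2 fold change -0.93, SE 0.0386, edgeR adjusted p 1.57e-19). MYCL, a relative of MYC, rose from 0.899, 1.39 and 1.24 to 6.72, 7.42 and 6.104 CPM (log2 fold change 2.51, SE 0.161, edgeR adjusted p 8.36e-15), and over the MYC and MAX network 5 of 12 rose and 5 fell (median -0.05). Of 38 MYC targets and ribosome biogenesis genes, 6 rose and 21 fell (median -0.18). The pyrimidine synthesis enzyme CAD fell from 183, 199 and 186 to 123, 121 and 103 CPM (log2 fold change -0.71, edgeR adjusted p 1.29e-09), whereas SRM, spermidine synthase (log2 fold change 0.69, edgeR adjusted p 2.19e-17), and CDK4 (log2 fold change 0.60, edgeR adjusted p 3.76e-15) rose.

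Transcripts of cytosolic ribosomal proteins fell almost throughout. Of 78 tested, 71 fell and 3 rose, with a median log2 fold change of -0.70, and their share of all counts was 4.24% to 4.70% in the control and 2.75% to 3.03% with gRNA 10. RPL8, of the large subunit, fell from 2602, 2349 and 2485 to 1385, 1281 and 1359 CPM (log2 fold change -0.89, SE 0.0384, edgeR adjusted p 1.34e-18). RPS21, of the small subunit, fell from 251, 221 and 229 to 87.4, 72.8 and 77.04 CPM (log2 fold change -1.56, SE 0.0595, edgeR adjusted p 3.71e-13), and RPS29 from 281, 216 and 228 to 92.4, 77.8 and 92.04 CPM (log2 fold change -1.47, SE 0.124, edgeR adjusted p 2.9e-05). All 3 were lower in every gRNA 10 library than in any control library. The rises included RPS26 (log2 fold change 0.40, edgeR adjusted p 4.02e-06) and RPL41 (log2 fold change 0.23, edgeR adjusted p 0.000913). Ribosomal protein genes have many processed pseudogenes, so reads may be divided between copies.

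Mitochondrially encoded genes fell in 11 of 13 cases and rose in 0 (median -0.55), as their lower share of counts above shows. MT-CO1, a cytochrome c oxidase subunit, fell from 14320, 14790 and 14400 to 10290, 9942 and 9587 CPM (log2 fold change -0.55, SE 0.0369, edgeR adjusted p 3.23e-14), MT-ND2, of complex I, fell by more (log2 fold change -1.06, edgeR adjusted p 2.73e-22), and the ribosomal RNA MT-RNR2 fell too (log2 fold change -0.75, edgeR adjusted p 1.13e-17). Of 74 nuclear-encoded respiratory chain subunits, 46 fell and 14 rose (median -0.22). ATP synthase subunits moved apart, with ATP5F1C lower (log2 fold change -1.0, edgeR adjusted p 3.75e-17) and ATP5F1B (log2 fold change 0.51, edgeR adjusted p 1.44e-14) and ATP5F1E (log2 fold change 0.93, edgeR adjusted p 7.97e-07) higher. The mitochondrial share and the ribosomal protein share of counts moved together, and the part of either in the other results was not tested.

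**Figure D4:**
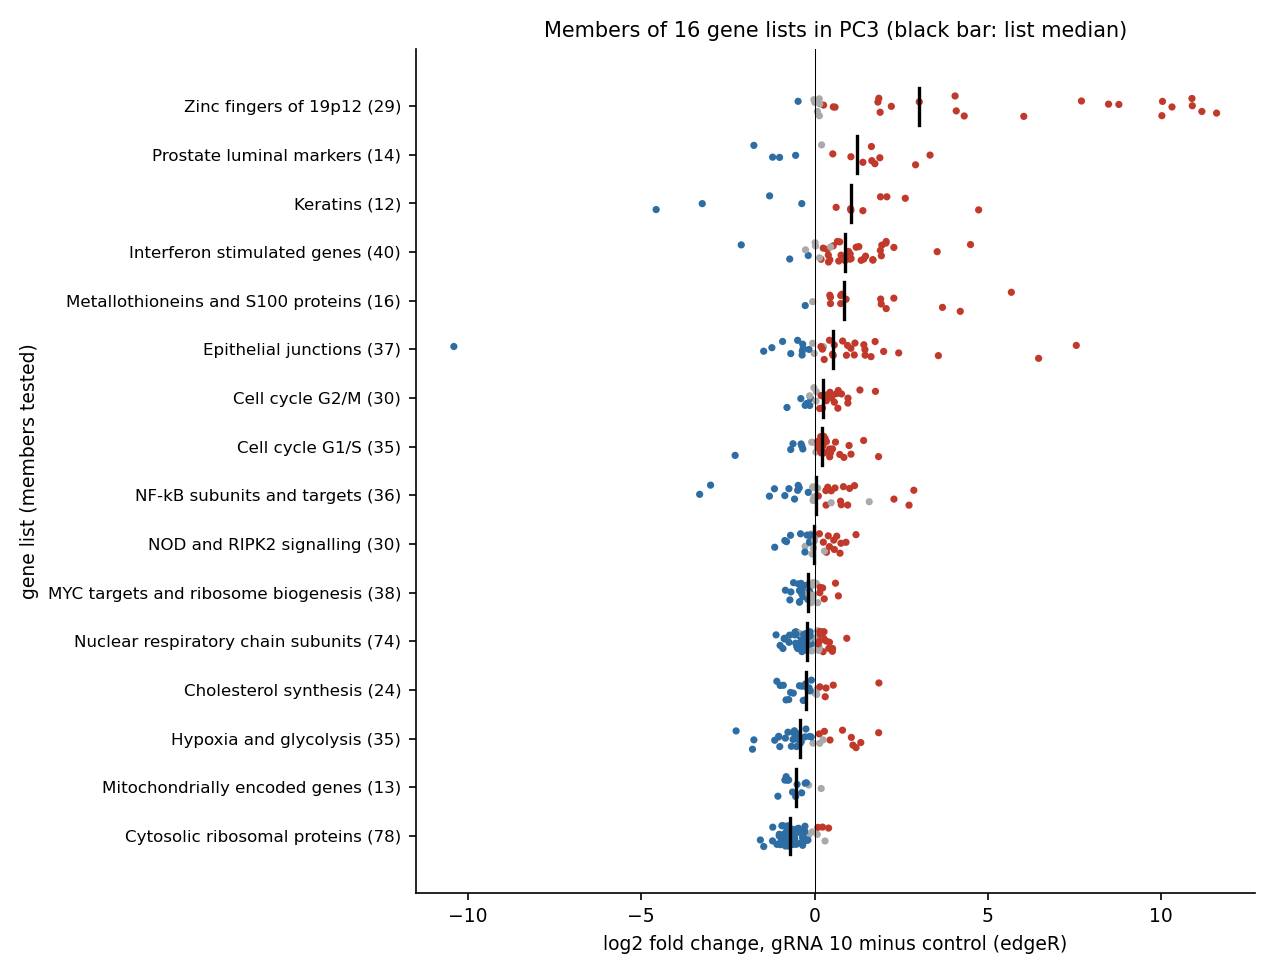
Log2 fold changes, gRNA 10 minus control, of the members of 16 gene lists, 1 point per gene tested (red called higher, blue called lower, grey not called), with the median of each list as a black bar. Interferon-stimulated genes (median 0.87) lie mostly above 0 and cytosolic ribosomal proteins (median -0.70) below it, while the NOD and RIPK2 list (median -0.01) is spread around 0.

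Genes of hypoxia and glycolysis fell more often than they rose, with 23 of 35 lower and 9 higher (median -0.42). HK2, the hexokinase that starts glycolysis in many tumours, fell from 185, 193 and 183 to 52.5, 56.4 and 52.96 CPM (log2 fold change -1.79, SE 0.042, edgeR adjusted p 7.18e-26). LDHA, lactate dehydrogenase A, fell from 1830, 1728 and 1786 to 986, 966 and 1029 CPM (log2 fold change -0.84, SE 0.0351, edgeR adjusted p 1.87e-19), and the hypoxia-induced NDRG1 from 415, 389 and 412 to 119.5, 117 and 124 CPM. PFKP, a phosphofructokinase, rose from 108, 112 and 113 to 280.5, 276 and 281 CPM (log2 fold change 1.33, edgeR adjusted p 6.2e-24), and EPAS1, the factor HIF-2 alpha, rose (log2 fold change 1.85, edgeR adjusted p 1.39e-12). PKM moved least of those named, and its call depended on the scaling, with an edgeR adjusted p of 0.0097 with TMM factors and 0.282 with total counts alone.

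Cholesterol synthesis genes were lower in 16 of 24 cases and higher in 5 (median -0.24). The epoxidase SQLE fell from 281, 286 and 280.2 to 139, 145 and 141 CPM (log2 fold change -0.99, SE 0.0363, edgeR adjusted p 6.76e-21) and the sterol carrier STARD4 fell (log2 fold change -1.09, edgeR adjusted p 2.69e-15), while FDFT1, squalene synthase, rose (log2 fold change 0.54, edgeR adjusted p 9.47e-13). Of 37 fatty acid and lipid droplet genes, 16 rose and 18 fell (median -0.06). ACSL4, which loads polyunsaturated fatty acids onto coenzyme A, rose from 84.2, 88.1 and 81.1 to 318, 342 and 337 CPM (log2 fold change 1.98, SE 0.0457, edgeR adjusted p 8.42e-25). FABP4, a fatty acid carrier, fell from 33.1, 30.6 and 31.7 to 4.64, 3.03 and 4.81 CPM (log2 fold change -2.93, SE 0.137, edgeR adjusted p 5.15e-10), and SCD, the stearoyl-CoA desaturase, from 1259, 1233 and 1281 to 823, 831 and 814 CPM (log2 fold change -0.61, edgeR adjusted p 8.55e-17). For each of these 3 the groups were apart.

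Stress response genes were mixed. Of 34 genes of the ATF4 and unfolded protein responses, 17 rose and 10 fell (median 0.11). TRIB3, a pseudokinase induced by ATF4, rose from 60.02, 56.3 and 60.3 to 193, 182 and 199.5 CPM (log2 fold change 1.70, SE 0.0442, edgeR adjusted p 9.78e-25), and PHGDH, the first enzyme of serine synthesis, from 74.2, 71.3 and 78.3 to 216, 195 and 216 CPM (log2 fold change 1.49, edgeR adjusted p 4.8e-23). ERN1, the endoplasmic reticulum stress sensor IRE1 (log2 fold change -1.10, edgeR adjusted p 8.36e-17), and the chaperone HSP90B1 (log2 fold change -0.41, edgeR adjusted p 9.42e-12) fell. Of 28 NRF2 antioxidant targets, 16 rose and 5 fell (median 0.17), with 8 rises and 1 fall of at least 2-fold. The rises included AKR1C1 and AKR1C2, whose changes in each line are given below. The ferritin chains FTH1, which went from 12390, 11530 and 12520 to 4591, 4309 and 4677 CPM (log2 fold change -1.42, SE 0.0382, edgeR adjusted p 3.98e-24), and FTL (log2 fold change -0.80, edgeR adjusted p 6.8e-18) were among the falls. Metallothioneins and S100 proteins rose in 14 of 16 cases and fell in 1 (median 0.85). Of this list, S100A9, S100A6 and S100A2 lie between bases 140000001 and 160000000 of chromosome 1, where 130 of 214 genes (60.7%) rose. The part of that position in the list's rises was not tested. S100A9, a calgranulin, rose from 1.35, 1.04 and 1.34 to 15.6, 15.3 and 17.6 CPM (log2 fold change 3.69, SE 0.131, edgeR adjusted p 3.12e-21), and S100A6 from 1162, 997 and 1092 to 1845, 1735 and 1902 CPM (log2 fold change 0.75, edgeR adjusted p 4.12e-09), whereas S100A2 fell (log2 fold change -0.27, edgeR adjusted p 0.00101).

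Cell cycle genes rose more often than they fell. Of 35 genes of G1 and S phase, 26 rose and 6 fell (median 0.21), and of 30 genes of G2 and M phase, 20 rose and 6 fell (median 0.25). TYMS, thymidylate synthase, rose from 67.6, 66.3 and 67.4 to 250.2, 230.5 and 242 CPM (log2 fold change 1.85, SE 0.0406, edgeR adjusted p 1.37e-26). CDK2, the kinase of S phase entry, rose from 48.6, 50.8 and 47.9 to 133, 131 and 129 CPM (log2 fold change 1.42, SE 0.0425, edgeR adjusted p 4.38e-23), and CDK6 fell from 17.2, 19.5 and 18.6 to 3.24, 4.96 and 3.08 CPM (log2 fold change -2.29, SE 0.114, edgeR adjusted p 5.17e-16). AURKA, a spindle kinase, rose from 48.04, 49.6 and 47.2 to 163, 161 and 165 CPM (log2 fold change 1.76, SE 0.0419, edgeR adjusted p 1.13e-25). The mitotic transcription factor FOXM1 went the other way, from 132, 135 and 129 to 78.1, 74.3 and 75.6 CPM (log2 fold change -0.80, SE 0.0415, edgeR adjusted p 5.22e-17). CCND1 rose (log2 fold change 0.44, edgeR adjusted p 2.06e-12), CDKN2A fell (log2 fold change -0.69, edgeR adjusted p 3.31e-14), and BIRC5, survivin, did not pass the test (log2 fold change 0.05, edgeR adjusted p 0.249).

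The stress cytokine gene GDF15 rose from 135, 122 and 134 to 376, 346 and 408 CPM (log2 fold change 1.53, SE 0.0677, edgeR adjusted p 5.72e-10), while MDM2, a ubiquitin ligase gene, fell (log2 fold change -0.48, edgeR adjusted p 1.83e-06). In the BCL2 family, 6 of 16 rose and 6 fell (median -0.06). The proapoptotic PMAIP1, also called NOXA, rose from 42.6, 44.3 and 38.8 to 89.2, 96.7 and 108 CPM (log2 fold change 1.23, SE 0.0624, edgeR adjusted p 9.81e-14), as did the pore former BAK1 (log2 fold change 0.98, edgeR adjusted p 1.37e-18). BCL2 (log2 fold change -1.09, edgeR adjusted p 3.5e-11), BCL2L1 (log2 fold change -0.41, edgeR adjusted p 2.46e-12) and the BH3-only gene BMF (log2 fold change -1.39, edgeR adjusted p 1.55e-15) fell.

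The list of Kruppel-type zinc finger genes in or near band 19p12 held several of the genes gained from near silence. Of 29 tested, 22 rose and 1 fell, and the median log2 fold change was 3.02, although 9 of them had a group at 0 in all libraries, where the fitted value depends on the prior count. With at least 10 counts required in every library, which leaves out members silent in the control, the median of the remaining 15 was 0.26. Of the 38 genes gained from near silence, 8 were members of this list, 10 had zinc finger symbols and 11 lay on chromosome 19. Besides ZNF43 and ZNF626, ZNF486 (248, 238 and 242 counts against 0, at least 78.3-fold higher), ZNF738 (252, 255 and 216 against 0, at least 77.8-fold) and ZNF506 (161, 160 and 164 against 0, at least 52.2-fold) had no control counts. ZNF91, expressed in both groups, rose from 15.1, 16.9 and 17.5 to 23.7, 25.7 and 22.4 CPM (log2 fold change 0.54, edgeR adjusted p 1.15e-07), and ZNF14 fell (log2 fold change -0.48, edgeR adjusted p 6.55e-06). These genes are close relatives, and reads that match several of them may be lost or divided in counting. The window median of chromosome 19 around ZNF43 was -0.01, so most genes of that window did not share the gain. ZNF506 and ZNF14 lie in the first window of the chromosome, whose median was -0.04.

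Other changes were shared by neighbouring genes along a chromosome. On chromosome 1, 1025 of 1458 genes tested (70.3%) rose and 175 (12%) fell, with a median log2 fold change of 0.43, and all 12 windows of 20 Mb with at least 20 genes had a median above 0 (0.18 to 0.72). In the first 20 Mb of chromosome 18, 52 of 61 genes (85.2%) rose and 6 fell, with a median of 1.05, and TYMS lies there. Chromosome 14 had 2 windows below -0.6, the third at -0.73 over 83 genes and the fourth at -0.68 over 140 genes, and MAX and RPS29 lie in them. The first window of chromosome 9 (-0.68), the fourth of chromosome 20 (-0.67) and the second of X (-0.90 over 32 genes) were low as well. The third window of chromosome 12 had a median of 0.42 over 221 genes, with 141 higher and 35 lower. It holds KRT81, KRT7, CDK2, CDK4, ERBB3, ITGA7, ITGA5, COL2A1, HOXC13, RPS26, RPL41 and ATP5F1B, all higher, and WNT10B, which was lower. The part of position in the changes of these genes was not tested. Of 153 windows, 16 had a median above 0.4 and 12 below -0.4. With gRNA 2 the chromosome 1 median against control was 0.44. DNA copy number was not measured.

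**Figure D5:**
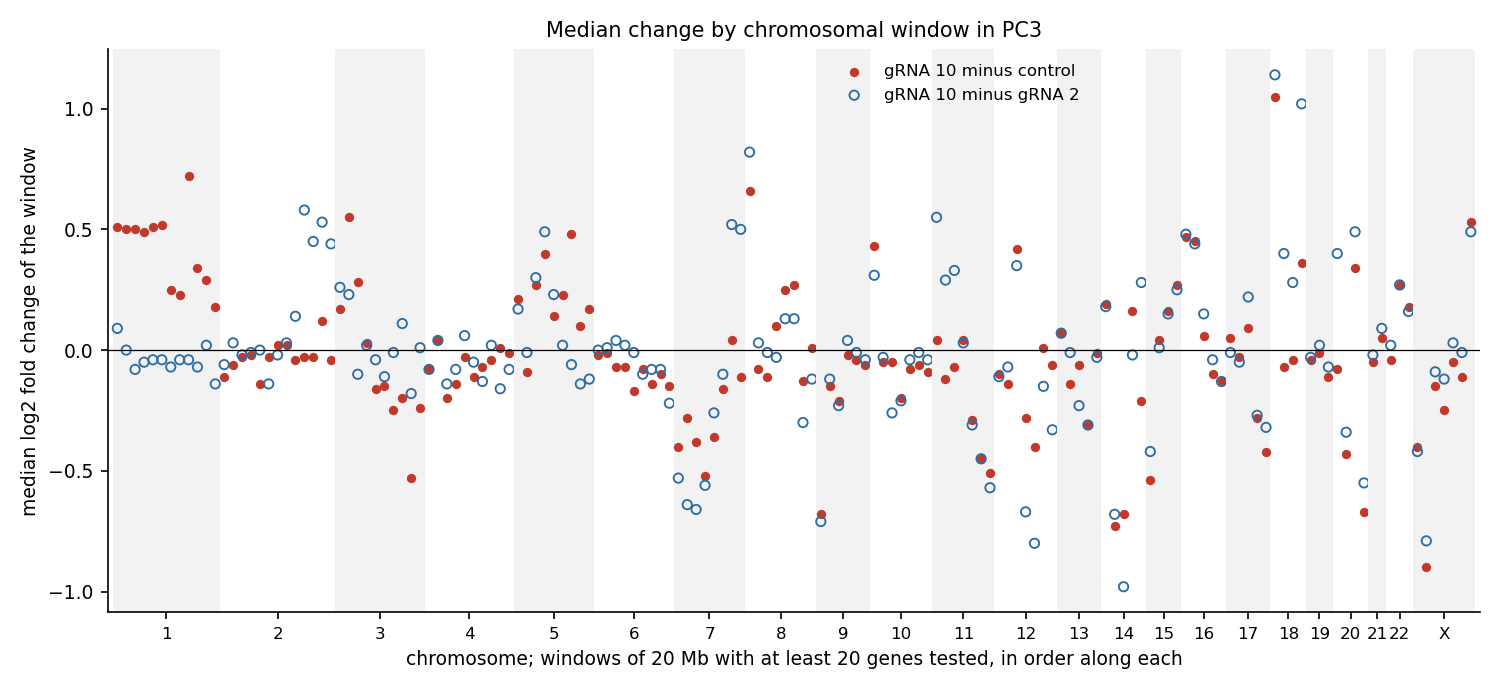
Median log2 fold change of the genes tested in each 20 Mb window, for windows with at least 20 genes in order along each chromosome on the x axis, for gRNA 10 minus control and gRNA 10 minus gRNA 2. Chromosome 1 lies above 0 in all 12 windows against control and near 0 against gRNA 2, while the first window of chromosome 18 lies near 1 in both.

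The PC3 population with gRNA 2 gives a second RIPK2 knockout in the same line, and the direct comparison shows where gRNA 10 differed from it. Between the RIPK2 guides 10799 genes passed the test (73.4% of those tested), 5433 higher with gRNA 10 (36.9%) and 5366 lower (36.5%). RIPK2 itself was at 21.7, 20.1 and 20.1 CPM with gRNA 2 and higher with gRNA 10 (log2 difference 0.40, edgeR adjusted p 1.05e-06). MYC stood at 149, 147 and 142 CPM with gRNA 2, between the other groups (log2 difference -0.94, edgeR adjusted p 1.09e-18 for gRNA 10 minus gRNA 2). LIF stood at 54.9, 59.5 and 53.6 CPM with gRNA 2 and was higher with gRNA 10 (log2 difference 2.63, edgeR adjusted p 9.7e-24). IL1B stood at 80.4, 87.6 and 84.3 CPM with gRNA 2 and was lower with gRNA 10 (log2 difference -5.84, edgeR adjusted p 5.14e-31). KRT7 stood at 596, 586 and 585 CPM with gRNA 2, which did not differ from gRNA 10 by the test (log2 difference -0.01, edgeR adjusted p 0.762), and KRT81 was at 675, 651 and 680.4 CPM, lower than with gRNA 10 (log2 difference 1.40, edgeR adjusted p 8.44e-25). FN1 stood at 633, 692 and 708 CPM with gRNA 2 and was lower with gRNA 10 (log2 difference -0.74, edgeR adjusted p 1.6e-07).

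Several lists also differed between the RIPK2 guides. Against gRNA 2, 37 of the 40 interferon-stimulated genes were higher with gRNA 10 and 1 lower (median 2.03), and MX1 stood at 17.1, 18.3 and 17.6 CPM with gRNA 2. Of 78 cytosolic ribosomal proteins, 71 were lower with gRNA 10 and 2 higher (median -0.78), and RPL8 stood at 2611, 2553 and 2710 CPM with gRNA 2. Of the 29 zinc finger genes in or near 19p12, 20 were higher and 3 lower (median 1.16). In the G2 and M phase list 6 were higher with gRNA 10 and 19 lower (median -0.23), and in the mesenchymal list 9 were higher and 19 lower (median -0.32). MYC targets were higher in 8 cases and lower in 27 (median -0.28). Of the 38 genes gained from near silence, 19 were at 3 counts or fewer in every gRNA 2 library, 2 (C9orf64 and CST4) at 100 or more in every one, and 17 between these limits. Of the 7 lost genes, 1 was at 3 counts or fewer in every gRNA 2 library (NKD2, at 1, 2 and 1) and 3 were at 100 or more. SLC47A1 had 177, 169 and 187 counts, LINC01116 191, 168 and 187 and GLB1L2 282, 218 and 248 with gRNA 2, whereas CXADR, at 17, 20 and 24, was low there too.

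Guide gRNA 10 was also used in 22Rv1 and DU145, whose control libraries are separate, so the contrasts of the 3 lines share no library. With gRNA 10, 40.6% of 15198 genes tested were called in 22Rv1 (20% as rises and 20.6% as falls) and 40% of 14908 in DU145 (20.2% and 19.8%). RIPK2 fell in 22Rv1 cells (log2 fold change -1.63, edgeR adjusted p 2.13e-06) and did not pass the test in DU145 (log2 fold change -0.29, edgeR adjusted p 0.0614). The change in PC3 was smaller than in 22Rv1, by 0.44 (SE 0.14, edgeR adjusted p 0.00905) on the log2 scale, and differed from that in DU145 by -0.89 (SE 0.12, edgeR adjusted p 1.68e-06). Over 12800 genes tested in all lines, 3796 were called in both PC3 and 22Rv1, which is 40.1% of the 9468 PC3 calls and 76% of the 4996 22Rv1 calls, where 74% and 39% of the genes tested were called. The overlap thus stood near what the share of calls in each line gives. Of these 3796, 1863 (49.1%) had the same direction, and the correlation of log2 fold changes across genes was 0.03. For DU145 the overlap was 3866 genes, 40.8% of the PC3 calls and 76.8% of the 5035 DU145 calls, with 1687 (43.6%) in the same direction and a correlation of -0.04. Genes are not independent replicates, and these correlations describe the contrasts only.

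A model of all 27 libraries tested 16322 genes for a difference of the gRNA 10 effect between lines. It called 7772 (47.6%) for PC3 against 22Rv1, 3884 (23.8%) of them with the more positive effect in PC3 and 3888 (23.8%) with the more negative, and 7843 (48.1%) for PC3 against DU145, 3941 (24.1%) more positive and 3902 (23.9%) more negative. The even split depends on TMM scaling, since total counts alone gave 4320 more positive and 3315 more negative against 22Rv1 and 4655 and 3004 against DU145. Fold changes of a single line come from the fit of that line, so they do not subtract exactly to the differences of this model. MYC did not pass the test in 22Rv1 cells (log2 fold change -0.19, edgeR adjusted p 0.0771) and rose in DU145 (log2 fold change 0.44, edgeR adjusted p 0.0239), and its effect in PC3 differed by -1.23 (SE 0.14, edgeR adjusted p 4.25e-08) from that in 22Rv1 and by -1.85 (SE 0.14, edgeR adjusted p 3.6e-11) from that in DU145. The effect on MX1 was larger in PC3 by 5.02 (SE 0.32, edgeR adjusted p 1.04e-12) than in 22Rv1 and by 4.68 (SE 0.25, edgeR adjusted p 5.05e-14) than in DU145. Of the interferon-stimulated genes, 20 had a more positive effect in PC3 than in 22Rv1 and 3 a more negative one, with 20 and 4 against DU145. Cytosolic ribosomal proteins fell in 14 and rose in 5 cases in 22Rv1 and rose in 18 and fell in 0 in DU145. Their effect was more negative in PC3 for 56 against 22Rv1 and for 66 against DU145. The zinc finger genes in or near 19p12 rose in 0 and fell in 17 of 33 cases in 22Rv1 (median -0.43), and rose and fell in 2 each of 13 in DU145.

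A set of 1671 genes was called in all 3 lines, where the product of the 3 shares of calls gives 1454. Of these, 190 rose in all, 174 fell in all and 1307 differed in direction between lines. The shares of rises and of falls in the 3 lines multiply to 174 and 189 genes, so the numbers shared in direction are near that background. GDF15 was among the rises (log2 fold changes 1.53 in PC3, 2.44 in 22Rv1 and 1.32 in DU145). The aldo-keto reductases AKR1C1 (2.83, 2.77 and 1.86) and AKR1C2 (3.92, 2.33 and 1.88), which reduce steroids and reactive aldehydes, rose in each line, and their near-identical sequences make the split of reads between them uncertain. In PC3, AKR1C2 stood at 0.599, 0.746 and 0.944 CPM in the control and 12.8, 11.4 and 10.9 CPM with gRNA 10. The falls with the largest smallest change were SLC47A1 (-7.72, -1.17 and -1.21), ANGPTL4, a secreted inhibitor of lipoprotein lipase (-2.31, -1.33 and -2.98), and SOCS2, a suppressor of cytokine signalling (-1.36, -3.16 and -1.18). In PC3, SOCS2 went from 47.99, 49.5 and 48.1 to 17.7, 18.9 and 20.2 CPM and ANGPTL4 from 15.4, 14.5 and 13.6 to 3.05, 3.18 and 2.499 CPM. No control library of either gene reached the gRNA 10 range.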

How the data were processed

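Strand-specific mRNA libraries were prepared from column-purified RNA and sequenced from both ends by DNBSEQ, per the labels' protocols. For each line the authors deposited raw counts by gene symbol and library, per the file headers. STAR, FastQC, edgeR and the build hg38 appear in the submitters' processing notes. The counting program, its strand setting and the annotation are not given in the sources used here, so genes overlapping an antisense partner are uncertain. Groups and replicate numbers came from the titles. The library names number some PC3 libraries differently (controls 1, 3 and 4, gRNA 2 libraries 1, 2 and 4), and the pairing check and replicate block rest on the titles' numbers.

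edgeR 4.0.16 in R 4.3.3 was run on the counts of all 9 PC3 libraries, with filterByExpr (minimum count 10, minimum total 15), TMM factors, robust dispersions and the two-sided quasi-likelihood F test. A gene was called at a Benjamini-Hochberg adjusted p below 0.05 over all genes tested, and standard errors came from the F statistic. Symbols listed more than once were summed (2 in PC3). A floor of 3 counts in a library was 0.144 to 0.150 CPM. Differences between lines were tested in 1 model of all 27 libraries over 16322 genes. Deviations of libraries with the same title number were only weakly correlated, so no pairing was used. Positions came from GENCODE 29, which matched 97.4% of the symbols tested, and promoters from RefSeq GRCh38.p14. The procedure was tested on simulated data in which few genes changed, so that test does not cover the scaling when most genes change.

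The comparison and the gene lists were chosen with earlier results of these data known. Named genes were RIPK2, NOD1, NOD2 and MYC, the 12 largest rises and 12 largest falls with at least 100 counts in the higher group and no overlap, up to 2 rises and 2 falls and the highest member per list, the 5 largest gains and 5 largest losses of mean CPM, the 5 rises and 5 falls largest against both other PC3 groups, and the 3 rises and 3 falls largest in all lines. Genes silent in 1 group were all counted. Some genes are not reported here. IFI6, IFIT1, IFITM1, KRT8, KRT18, KRT19, DSP, OCLN, EPCAM, CDH1, CAV1, SLC45A3, KDR and PECAM1 were named after their values were seen. Alternatives were RLE factors, total counts alone, DESeq2 1.42.0, other filters, the compared libraries only, a replicate block, glmTreat with a fold of 1.5 (limma 3.58.1 was loaded with edgeR) and leaving out each library.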

Additional observations from a re-analysis of the deposited data

Results flagged for a closer look

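The effect of gRNA 10 in PC3 differed from its effect in the other lines for many genes, by the interaction term of edgeR's quasi-likelihood test in the model of all 27 libraries. It did so for 7772 genes against 22Rv1 and for 7843 genes against DU145. For RIPK2 the difference was 0.44 (PC3 minus 22Rv1, log2; PC3 -1.15, 22Rv1 -1.63) and -0.89 (PC3 minus DU145; DU145 -0.29), where the values of single lines come from a separate fit of each line. For MYC it was -1.23 and -1.85, with MYC called lower in PC3, not called in 22Rv1 and called higher in DU145. For MX1 it was 5.02 and 4.68, and for IFI6 3.56 and 2.24, more positive in PC3 in each case. The edgeR adjusted p-values of these 8 differences ran from 5.05e-14 (MX1 against DU145) to 0.00905 (RIPK2 against 22Rv1). The sign was the same in each pair except for RIPK2, whose fall in PC3 was smaller than in 22Rv1 and larger than in DU145.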

How the results depend on the processing

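The count of calls against control was 10328 to 10522 when 1 library was left out and 9684 to 11390 under the other settings (DESeq2 10083), beside 10815. Calls with a fold of at least 2 numbered 2550 to 2618 without 1 library, 1508 with at least 10 counts in every library and 3244 with no filter, beside 2531, and 3543 genes passed glmTreat's test against a fold of 1.5. Calls against gRNA 2 numbered 10436 to 10932 without 1 library and 9704 to 11388 otherwise. Differences between lines numbered 7183 to 7311 (22Rv1) and 7207 to 7294 (DU145) without 1 library, and 6294 to 9439 and 6181 to 10144 otherwise. The gained genes numbered 39 to 42 and the lost genes 7 to 12 without 1 library, with 12 reached without gRNA 10 replicate 1. RIPK2 ranged from -1.18 to -1.11 (log2) without 1 library. With the replicate number as a block, 10931 genes were called, 2535 of them with a fold of at least 2, and 10903 against gRNA 2. The pairing check gave correlations of deviations of 0.031, 0.053 and -0.0082 for the same title numbers. Of 3 gRNA 10 libraries, 2 correlated best with their own number, but these correlations were small. Pairing by the library names was not examined. Of 194 named genes, 190 were called, none reversed under any setting run, 3 lost the call in some setting (SAMD9, PKM and BEX3, the last without control replicate 2 or gRNA 10 replicate 1, edgeR adjusted p 0.154 and 0.0621) and 3 gained it (BIRC5, NRP1 and RBBP7). Of 37 list medians, 11 changed sign in some setting, among them those of the NOD and RIPK2, NF-kB, cytokine, MAP kinase and BCL2 lists, so no direction was given for them. Scaling by total counts moved the median of all genes by 0.059. Depth limits genes below about 10 counts, and intervals cover counting error only.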

Other observations

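HOX genes, cancer testis antigens, chromatin regulators and neuroendocrine markers were also followed in PC3 with gRNA 10. Of 21 HOX genes, 8 rose and 5 fell against the control (median log2 fold change 0.17), and against gRNA 2, 1 was higher and 14 lower (median -0.78). HOXC13 rose from 3.45, 3.18 and 4.07 to 8.75, 10.2 and 8.94 CPM (log2 fold change 1.38, edgeR adjusted p 4.21e-12), with 13.9, 14.7 and 13.7 CPM in the gRNA 2 libraries. HOXA13, a gene of the distal urogenital tract and limb, fell from 92.8, 96.5 and 98.9 to 49.3, 48.7 and 47.7 CPM (log2 fold change -0.98, edgeR adjusted p 5.59e-18). The groups did not overlap for either gene. Of 14 cancer testis antigens and BEX genes, 8 rose and 3 fell (median 0.19). MAGEA3 rose from 1.198, 1.44 and 1.39 to 11.6, 10.98 and 12.2 CPM (log2 fold change 3.10, edgeR adjusted p 6.31e-20) and stood at 50.2, 50.5 and 51.5 CPM with gRNA 2, and reads may be divided among the similar MAGEA genes. BEX1, a small brain-expressed X-linked protein gene, fell from 28.5, 23.7 and 26.9 to 1.499, 1.44 and 1.54 CPM (log2 fold change -4.14, edgeR adjusted p 1.79e-23), and PRAME fell (log2 fold change -1.27, edgeR adjusted p 4.87e-19).

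Of 30 genes of DNA methylation and Polycomb complexes, 12 rose and 11 fell (median -0.01). CBX2, a chromobox subunit of the Polycomb repressive complex 1, rose from 20.8, 22.2 and 23 to 135, 142 and 141 CPM (log2 fold change 2.66, SE 0.0491, edgeR adjusted p 1.94e-28) and stood at 28.8, 29.2 and 29.02 CPM with gRNA 2. CBX7, another chromobox subunit, rose (log2 fold change 0.98, edgeR adjusted p 4.97e-16). The methylcytosine dioxygenase genes TET1, from 6.34, 7.26 and 6.81 to 2.47, 2.98 and 2.64 CPM (log2 fold change -1.33, edgeR adjusted p 8.35e-11), and TET3 (log2 fold change -0.91, edgeR adjusted p 4.04e-09) fell. CBX2 was higher, and TET1 lower, in every gRNA 10 library than in any control library. Of 7 neuroendocrine markers, 1 rose and 3 fell (median -0.29): ENO2 rose slightly (log2 fold change 0.14, edgeR adjusted p 0.00257), and DLL3, a Notch ligand, fell (log2 fold change -0.49, edgeR adjusted p 0.0004). With at least 10 counts required in every library the median of this list was 0.08, so no direction is given for it.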
